A study of Gallus gallus with 45 samples.

Results

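The jejunum of broiler line Y was compared between day 16 and day 4 after hatch. One-colour arrays had been hybridised with RNA of whole jejunal tissue, and each array held 1 pool of 10 birds. Line Y had 8 pools at day 16 (pools 17 to 24) and 7 pools at day 4 (pools 9 to 13, 15 and 16), which were 15 of the 45 arrays of the series. Lines X and Y were genetically different broiler lines of the same hatch, kept in separate pens on the same feed, and no treatment other than the line is named for them. A probe was a member when it exceeded a limit for dim spots in every array of at least 1 of both ages and when its accession had a gene symbol. This gave 6512 of 10458 probes with a symbol, for 3311 of 4655 genes, and 1344 genes were not kept. Of the 3311 genes, 3005 passed the limit at both ages, 274 at day 16 only and 32 at day 4 only. The limit was thus passed more often at day 16 alone, which favours genes that were brighter at day 16, and counts are also given for the genes that passed at both ages.

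The small intestine of a young chick takes over nutrient uptake from the yolk in the days after hatch. Its villi grow out of a proliferating crypt compartment, enterocytes with a brush border absorb peptides, sugars, minerals and fat, and lymphocytes settle in the epithelium and the lamina propria. T cells are the first to arrive in numbers, and B cells and the secretion of antibody into the lumen follow.

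All values below are normalised log2 intensities, and a difference is the day 16 mean minus the day 4 mean, with its standard error. The 2 ages of line Y were hybridised on different slides, and in all values age and slide cannot be told apart. The raw median intensity of an array ranged between 110 and 183 for the day 16 pools, against 136 and 199 for the day 4 pools. The share of probes well above background was 68.6 to 74.8 % in day 16 arrays, against 65.5 to 77.8 % in day 4 arrays. Pairs of day 16 arrays correlated with 0.973 to 0.989, and pairs of day 4 arrays with 0.982 to 0.991. The limit for dim spots was 5.46 to 7.76 at day 16, and at day 4 it was 8.5 in pool 12 and at most 5.64 in the other pools. A probe under the limit in pool 12 did not pass at day 4, even where it was well above background in every day 4 pool. The p-values measure the spread between pools, in which differences between single birds are averaged.

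The samples carried the markers of enterocytes at both ages. VIL1, which encodes villin of the brush border core, and ANPEP, which encodes aminopeptidase N, were saturated in all 8 pools at day 16 and in all 7 at day 4, and therefore gave no difference in level. The peptide transporter SLC15A1 had log2 values of 14.2 to 14.8 at day 16, against 14.5 to 15.2 at day 4. The intestinal transcription factor CDX2 reached 15.2 to 16.0 at day 16, against 15.8 to 16.0 at day 4. CDX2 was saturated in 5 of 8 pools at day 16 and in all 7 at day 4, the fatty acid binding protein FABP2 likewise in 5 of 8 and 7 of 7, and the apolipoprotein APOA4 in 3 of 8 and 7 of 7, so that the lack of a call for them says little about a change. SLC15A1, which was not saturated, was not called.

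A gene was called when limma gave a Benjamini-Hochberg adjusted p under 0.05 and a fold change over 1.3. At day 16, 407 of the 3311 genes were higher (12.3 %) and 407 were lower (12.3 %) than at day 4, and 2497 were not called. Over all 19475 kept probes, with or without a symbol, 2732 were higher (14 %) and 2343 were lower (12 %). Among the 3005 genes that passed the limit at both ages, 308 were higher (10.2 %) and 374 were lower (12.4 %). The median absolute difference of the called genes was 0.593, and the median difference over all genes was -0.037. By over 2-fold, 94 genes were higher and 45 were lower, and by over 4-fold, 19 were higher and 7 were lower. Among the genes that passed at both ages, 55 were higher and 34 were lower by over 2-fold, and 6 and 3 by over 4-fold. Of the 274 genes that passed at day 16 only, 99 were called higher and 16 lower, and of the 32 that passed at day 4 only, 0 were called higher and 17 lower. All day 16 pools lay above all day 4 pools for 268 of the higher genes, and all lay below them for 200 of the lower genes, while 16.2 % of all genes had ages that did not overlap, in either direction. Kept probes of 5 genes were called in opposite directions, among 1946 genes with more than 1 kept probe.

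Genes of lymphocytes and of antibody secretion led the increases. JCHAIN encodes the chain that joins IgA and IgM into polymers, and its values were 8.87 to 9.60 at day 16 (median 9.31) and 3.20 to 4.20 at day 4 (median 3.49). The day 4 spots were well above background in 0 of 7 pools, so that JCHAIN was at least 28.0-fold higher at day 16 (adjusted p = 8.64e-13). PIGR, the receptor that carries these polymers through the epithelium, was at 16.0 in the day 16 pools and at 12.1 to 13.2 at day 4 (median 12.7). The measured difference was 3.32 ± 0.13 (adjusted p = 9.25e-12), and since 7 of 8 day 16 pools were saturated, their true level may have been above the scale. CD79B, the signalling chain of the B cell receptor, had values of 8.84 to 9.77 at day 16 (median 9.23), against 4.97 to 6.46 at day 4 (median 5.82), and was well above background in 5 of 7 day 4 pools. The difference of CD79B was 3.52 ± 0.20 (adjusted p = 1.88e-09). JCHAIN and CD79B passed the limit for dim spots at day 16 only, the age at which they were brighter, and PIGR passed at both ages.

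T cell genes were also among the largest increases. CD8BP, listed in RefSeq with the synonym CD8B, which names the beta chain of the co-receptor of cytotoxic T cells, was at 10.8 to 11.1 at day 16 (median 11) and at 6.93 to 7.93 at day 4 (median 7.46). GZMA, a granzyme of cytotoxic cells, was at 15.9 to 16.0 at day 16 and at 12.8 to 14 at day 4 (median 13.1), and was saturated in 3 of 8 day 16 pools. The differences were 3.59 ± 0.12 for CD8BP (adjusted p = 1.88e-12) and 2.68 ± 0.15 for GZMA (adjusted p = 1.43e-09). LAG3, an inhibitory receptor of activated T cells, was higher by 2.43 ± 0.13, and CD5, a surface protein of T cells, by 2.34 ± 0.13. IL22, a cytokine of lymphocytes that acts on epithelium, had values of 8.18 to 9.20 at day 16 (median 8.53) and of 3.97 to 6.84 at day 4 (median 5.34), with 4 of 7 day 4 pools well above background. Its difference was 3.39 ± 0.38 (adjusted p = 4.63e-06). CD8BP, LAG3, CD5 and IL22 passed the limit for dim spots at day 16 only, the age at which they were brighter, and GZMA passed at both ages. Even so, CD8BP, LAG3 and CD5 were well above background in 7 of 7 day 4 pools.

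Of the 12 largest increases among genes whose pools did not overlap, 4 others were FGG, LYG2, LOC422926 and PCASP2. FGG encodes the gamma chain of fibrinogen, which is made in the liver, and was at 9.01 to 10 at day 16 (median 9.41) and at 3.92 to 6.64 at day 4 (median 5.26, with 5 of 7 pools well above background), a difference of 4.20 ± 0.33. LYG2, a goose-type lysozyme, was at 10.9 to 12.3 at day 16 (median 11.2) and at 6.54 to 10.4 at day 4 (median 7.45), where pool 9 was the highest. LOC422926 is a gene without a descriptive symbol, and it differed by 2.97 ± 0.17. PCASP2 differed by 2.51 ± 0.15. FGG, LYG2 and LOC422926 passed the limit for dim spots at day 16 only, and PCASP2 passed at both ages.

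The largest decreases were in genes of globin, mineral transport, defence and cell contacts. HBE1, an embryonic globin, was at 6.05 to 8.09 at day 16 (median 7.26) and at 10.8 to 12.5 at day 4 (median 11.7), a difference of -4.43 ± 0.29 (adjusted p = 7.78e-09). SLC34A2, a sodium and phosphate cotransporter of the intestinal brush border, was at 8.6 to 9.47 at day 16 (median 9.14) and at 12.5 to 13.5 at day 4 (median 12.9). With -3.87 ± 0.17 (adjusted p = 5.74e-11), it was the nutrient transporter with the largest difference, and its 3 kept probes were all called lower. AvBD10, an avian beta-defensin, was at 4.66 to 5.87 at day 16 (median 5.31) and at 7.14 to 9.57 at day 4 (median 9.03), and 5 of 8 day 16 pools were well above background. GJB1, a gap junction protein, was at 5.83 to 8.65 at day 16 (median 8.10) and at 10 to 10.9 at day 4 (median 10.5). HBE1, AvBD10 and GJB1 passed the limit for dim spots at day 4 only, and SLC34A2 passed at both ages. The globins are a family of closely related copies, so that the assignment of their signal to 1 member is uncertain. The 3 kept probes of AvBD10 were all called lower, and whether they also bind other defensins was not tested.

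Of the other 8 large decreases, ADH6, an alcohol dehydrogenase, differed by -2.44 ± 0.22, and the globins HBE and HBAD by -2.16 ± 0.22 and -1.84 ± 0.13. HBAD was saturated in 7 of 7 day 4 pools and was at least 3.57-fold lower at day 16. KRT24, a keratin, fell by 1.76 and MME, the brush border peptidase neprilysin, by 1.60. BMP3, a growth factor of the BMP family, fell by 1.58, CALB1, the calcium-binding protein calbindin, by 1.55, and ANO5 by 1.53 on the log2 scale.

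**Figure D1:**
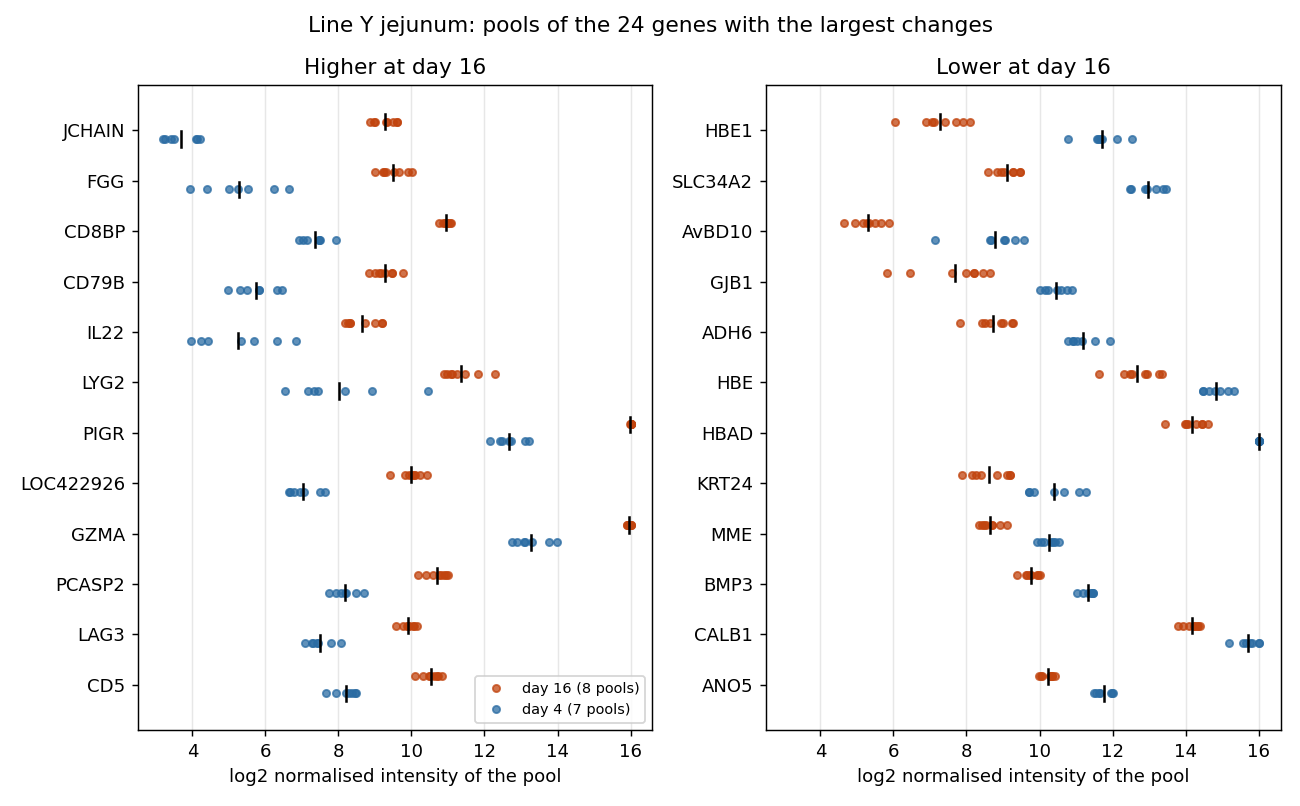
Normalised log2 intensity (horizontal axis) of the 12 genes with the largest increase and the 12 with the largest decrease in line Y jejunum, each point 1 pool, with the 8 day 16 pools above the 7 day 4 pools of a gene and a bar at the mean. The genes were chosen among those whose ages do not overlap. JCHAIN has day 16 pools at 8.87 to 9.60 and day 4 pools at 3.20 to 4.20.

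Genes were then grouped in lists by role. Over all tested genes, 12.3 % were called higher and 12.3 % lower, and the list counts are to be read against these shares. Of the 3311 tested genes, 98 (2.96 %) were on 7 immune lists, and 53 of these were higher and 6 were lower at day 16. Among the genes that passed at both ages, 81 (2.7 %) were on these lists, with 37 higher and 5 lower, and 17 of the 55 higher by over 2-fold (30.9 %) were on them. Of all 94 genes higher by over 2-fold, 30 (31.9 %) were on these lists and 59 were on no list, and of the 45 lower by over 2-fold, 3 were on these lists and 16 on no list. In whole tissue, more cells of a type and more RNA per cell cannot be told apart.

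All 13 tested genes of T cells and cytotoxic cells were higher at day 16, by 0.48 to 3.59, with a median of 1.46. The 9 that passed the limit at both ages were also all higher, with a median of 1.46. CD3E, a chain of the T cell receptor complex, had log2 values of 13.1 to 13.8 at day 16 (median 13.6) and of 11.9 to 12.2 at day 4 (median 12). CD3D, another chain of the complex, was at 15.8 to 16.0 at day 16 and at 14.1 to 14.9 at day 4 (median 14.7). CD3D was saturated in 4 of 8 day 16 pools. The differences were 1.46 ± 0.097 for CD3E (adjusted p = 9.8e-09) and, as measured, 1.37 ± 0.091 for CD3D (adjusted p = 1.08e-08). Probes of CD8A did not pass the limit, and 14 genes of the list on the array were not kept.

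Genes of B cells and antibody secretion were higher for 8 of 12 members and lower for 0, with a median of 1.34. Only 7 of the 12 passed the limit at both ages, and 3 of these 7 were higher, with a median of 0.35. On this list the other 11 genes with a probe, among them PAX5, the transcription factor of B cell identity, were not kept.

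Genes of macrophages, heterophils and dendritic cells were higher for 7 of 13 members and lower for 1, with a median of 0.82. Of the 11 that passed the limit at both ages, 5 were higher and 1 was lower, with a median of 0.63. SPI1, a transcription factor of myeloid cells and B cells, was at 7.61 to 8.15 at day 16 (median 7.90) and at 6.52 to 7.28 at day 4 (median 6.75), and rose by 1.04 ± 0.11. SPI1 passed the limit at day 16 only, the age at which it was brighter. ITGB2, the beta chain of leukocyte integrins, rose by 1.24 ± 0.19. LYZ, the lysozyme of chicken egg white, of macrophages and of heterophils, rose by 0.93 ± 0.14. LY86, which pairs with a Toll-like receptor relative in mammals, was the 1 member that fell, with values of 10.1 to 11 at day 16 (median 10.5) and of 11.1 to 11.7 at day 4 (median 11.3), a difference of -0.81 ± 0.15 (adjusted p = 0.000449).

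Of 19 chemokines, interleukins and their receptors, 10 were higher and 2 were lower, with a median of 0.53, and 6 of the 15 that passed at both ages were higher, with a median of 0.04. Beside IL22, the largest increases were those of IL10RA, a chain of the receptor of the anti-inflammatory cytokine IL10, by 2.10 ± 0.14, and of the chemokine CCL1 by 1.99 ± 0.088. IL10RA passed the limit at day 16 only, the age at which it was brighter, and CCL1 passed at both ages. CCL1 was at 11.6 to 12.2 at day 16 (median 11.9) and at 9.80 to 10.3 at day 4 (median 9.92). The receptor gene IL1RL1 and the chemokine CXCL14 were lower, by -1.01 ± 0.25 and -0.60 ± 0.10. The day 4 mean of IL1RL1 included pool 10 at 10.5, against 8.81 in the next pool.

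Antigen presentation was higher for 7 of 14 members and lower for 0, with a median of 0.30. TAP1, a subunit of the peptide pump that loads MHC class I, was at 9.27 to 11 at day 16 (median 10.8) and at 8.10 to 9.42 at day 4 (median 8.36), a difference of 2.08 ± 0.25 (adjusted p = 9.74e-06). The ages overlapped for TAP1, because day 16 pool 17 was at 9.27 and day 4 pool 12 at 9.42. BLB1, a beta chain of MHC class II, rose by 1.34 ± 0.17, and DMA, which helps to load class II molecules, rose by 1.24 ± 0.11. MHC genes of the chicken also have closely related copies.

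Of 18 interferon response genes, 5 were higher and 1 was lower, with a median of 0.17. SOCS1, an inhibitor of cytokine signalling, was at 11 to 11.8 at day 16 (median 11.2) and at 9.65 to 11.2 at day 4 (median 10.3), a difference of 0.87 ± 0.21 (adjusted p = 0.00404). GBP, a guanylate binding protein, rose by 0.84 ± 0.17 and IRF7, a transcription factor of the interferon response, by 0.67 ± 0.16. TLR3, the receptor of double-stranded RNA, fell by 0.55 on the log2 scale (adjusted p = 0.00512). Among 12 Toll-like receptors and antimicrobial peptides, 4 were higher and 3 were lower, with a median of 0.20. Of the 10 that passed the limit at both ages, 3 were higher and 2 were lower. TLR7, a receptor of single-stranded RNA, and MYD88, the adaptor of most of these receptors, rose by 0.66 ± 0.07 and 0.60 ± 0.08. TLR7 passed the limit at day 16 only, the age at which it was brighter. LEAP2, an antimicrobial peptide of liver and gut, was at 12.2 to 12.7 at day 16 (median 12.4) and at 13.3 to 14.4 at day 4 (median 13.6), and fell by 1.28 (adjusted p = 3.9e-06).

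**Figure D2:**
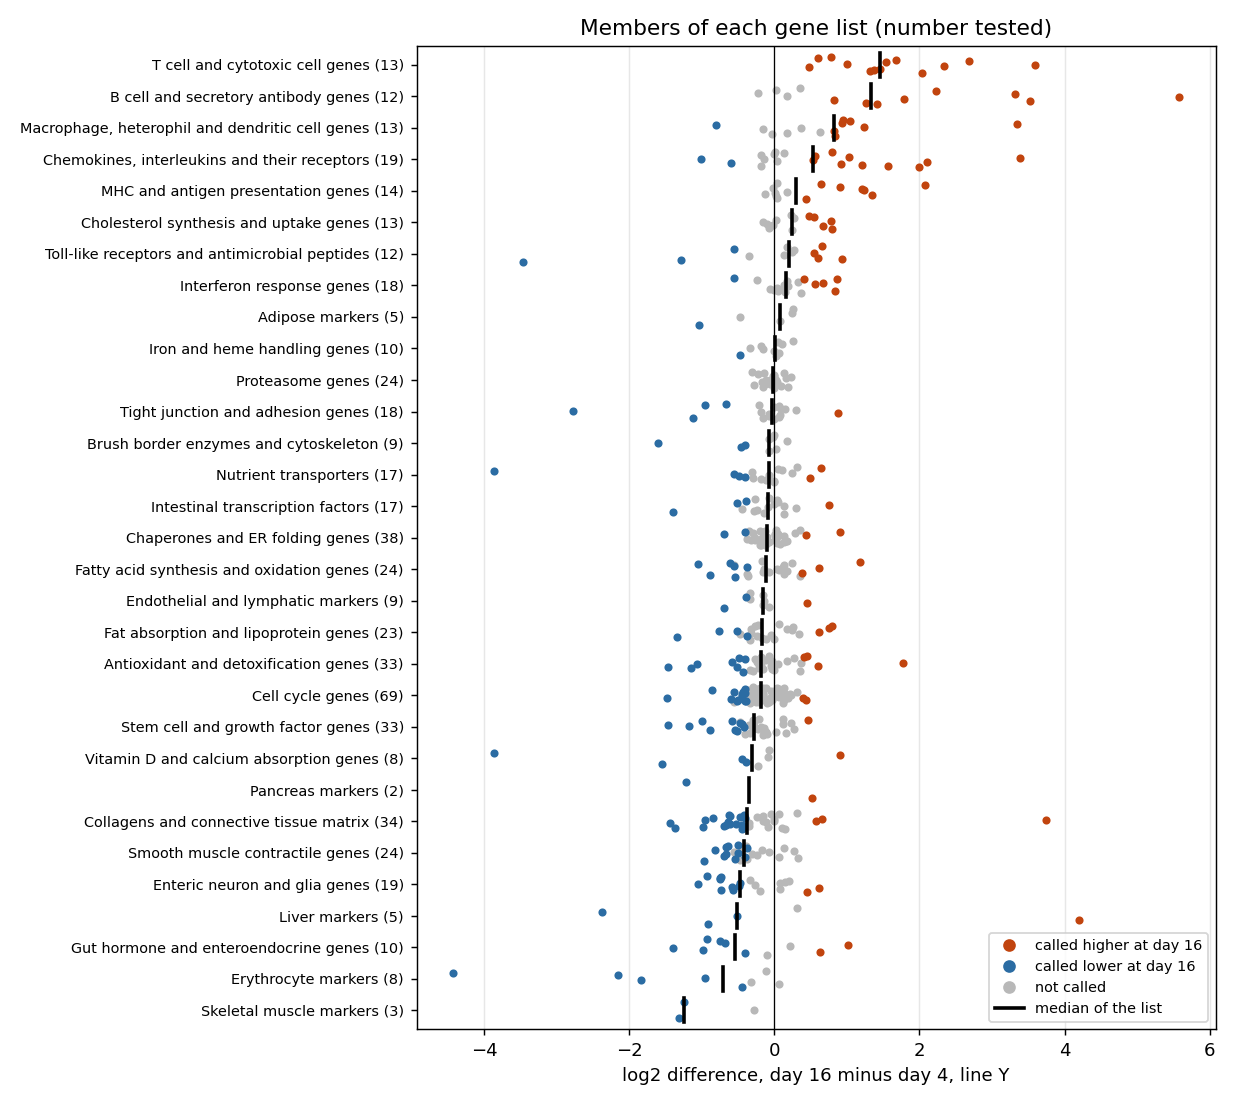
Log2 difference of day 16 minus day 4 (horizontal axis) for every tested gene of 31 gene lists in line Y, with lists ordered by their median, red points called higher, blue points called lower, grey points not called and a black bar at the median. The T cell list lies farthest to the right with a median of 1.46, and the lists of smooth muscle, neurons and gut hormones lie to the left of 0 with medians of -0.43, -0.48 and -0.54.

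Of 9 brush border genes, among them the saturated VIL1 and ANPEP, 0 were higher and 3 were lower, with a median of -0.07. Beside MME, these were DPP4, a peptidase of the brush border, by -0.46 ± 0.11, and EZR, which links the membrane to actin, by -0.41 ± 0.14. Of 17 nutrient transporters, 2 were higher and 4 were lower, with a median of -0.08, against 12.3 % of all genes in each direction. Of the 15 that passed the limit at both ages, 1 was higher and 3 were lower. The amino acid transporter SLC7A5 rose by 0.65 ± 0.13 and the monocarboxylate transporter SLC16A1 by 0.49 ± 0.13, while the folate carrier SLC19A1 fell by 0.49 and the anion exchanger SLC26A6 by 0.56. SLC7A5 passed the limit at day 16 only, the age at which it was brighter.

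The list of vitamin D and calcium absorption genes had 4 of 8 members lower and 1 higher, with a median of -0.31. CALB1 was at 13.8 to 14.4 at day 16 (median 14.2) and at 15.2 to 16.0 at day 4 (median 15.8), and its 3 kept probes were all called lower. The difference was -1.55 ± 0.12 (adjusted p = 9.39e-08), with 2 of 7 day 4 pools saturated. CALM2, a calmodulin gene, fell by 0.45, and the member that rose was PDIA3, a protein disulfide isomerase of the endoplasmic reticulum, by 0.90 ± 0.097. Of 10 genes of iron and heme handling, 0 were higher and 1 was lower, the heme synthesis enzyme ALAS1, by -0.47 ± 0.084.

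Fat absorption and lipoprotein genes were mixed, with 3 of 23 higher and 4 lower, against 12.3 % of all genes in each direction. Of the 20 members that passed the limit at both ages, 1 was higher and 4 were lower. APOB, the main protein of lipoprotein particles, was at 13.2 to 13.8 at day 16 (median 13.6) and at 14.6 to 15.4 at day 4 (median 14.9). Its difference was -1.34 ± 0.11 (adjusted p = 1.92e-07), and all 7 kept probes of APOB were called lower. LPIN2, a phosphatidate phosphatase, fell by 0.76 and FGF19, a hormone released in response to bile acids in mammals, by 0.52 on the log2 scale. The members that rose were PLTP, a phospholipid transfer protein, by 0.80 ± 0.12, NR1H4, the bile acid receptor, by 0.76 ± 0.09, and FABP7, a fatty acid binding protein, by 0.61 ± 0.12. PLTP and FABP7 passed the limit at day 16 only, the age at which they were brighter, and NR1H4 passed at both ages.

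Of 13 genes of cholesterol synthesis and uptake, 5 were higher and 0 were lower, with a median of 0.25. LSS, which closes the first sterol ring system, was at 14.5 to 15.1 at day 16 (median 14.9) and at 13.9 to 14.3 at day 4 (median 14.1), a difference of 0.78 ± 0.085 (adjusted p = 3.18e-06). FDFT1, which makes squalene, was at 14.8 to 15.2 at day 16 (median 15) and at 14.1 to 14.4 at day 4 (median 14.3), a difference of 0.67 ± 0.07. All day 16 pools lay above all day 4 pools for both genes. Of the 12 members that passed at both ages, 4 were higher and 0 were lower.

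Fatty acid synthesis and oxidation had 3 of 24 members higher and 6 lower. Of the 23 that passed the limit at both ages, 2 were higher and 6 were lower. The 3 that rose belong to synthesis: SCD, the desaturase of stearate, by 1.18 ± 0.12, FASN, the fatty acid synthase, by 0.62 ± 0.089, and ACLY, which makes cytosolic acetyl-CoA, by 0.38 ± 0.14. SCD passed the limit at day 16 only, the age at which it was brighter. The call of ACLY was lost under 15 of 21 alternative settings. The members that fell the most take part in oxidation or its control. PDK4, a kinase that limits the use of glucose, was at 9.64 to 9.95 at day 16 (median 9.88) and at 10.1 to 11.3 at day 4 (median 10.9), with a difference of -1.05 ± 0.15. PPARA, a receptor that regulates oxidation, fell by 0.61. ACAD9, a mitochondrial dehydrogenase, was at 11.1 to 13.1 at day 16 (median 12.5) and at 13.1 to 13.4 at day 4 (median 13.2), and its difference of -0.88 ± 0.26 was -0.50 without pools 23 and 24.

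Hormone genes of the gut were lower for 6 of 10 members and higher for 2, with a median of -0.54. Of the 7 that passed at both ages, 6 were lower and 0 were higher. IAPP, known as amylin, was at 9.19 to 9.84 at day 16 (median 9.49) and at 10.6 to 11.4 at day 4 (median 10.8), and differed by -1.39 ± 0.12 (adjusted p = 3.12e-07). GIP, an incretin hormone of the upper intestine in mammals, was at 11.6 to 12.5 at day 16 (median 12) and at 12.3 to 13.9 at day 4 (median 12.9), so that the ages overlapped. The neuropeptide VIP fell by 0.93. NEUROD1, a transcription factor of endocrine cells, rose by 1.01 ± 0.20 and GHRL, which encodes ghrelin, by 0.63 ± 0.17. NEUROD1 and GHRL passed the limit at day 16 only, the age at which they were brighter.

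Antioxidant and detoxification genes were higher for 4 of 33 members and lower for 8, against 12.3 % of all genes in each direction. GSTA4, a glutathione transferase, was at 12.7 to 13.5 at day 16 (median 13.3) and at 10.9 to 11.8 at day 4 (median 11.5), and rose by 1.77 ± 0.15 (adjusted p = 1.65e-07). GCLC, a subunit of the enzyme that limits glutathione synthesis, rose by 0.60 ± 0.073 and XDH, xanthine dehydrogenase, by 0.45 ± 0.10. CYP4V2, a cytochrome P450 that oxidises fatty acids in mammals, was at 9.31 to 10.3 at day 16 (median 9.88) and at 11 to 11.5 at day 4 (median 11.3). It fell by 1.46, CYP2C23a, another cytochrome P450, by 1.15, and GPX7, a peroxidase, by 1.07.

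Of 18 genes of tight junctions and adhesion, 1 was higher and 4 were lower, against 12.3 % of all genes in each direction. F11R, a junctional adhesion molecule, rose by 0.88 ± 0.14. CLDN1, a claudin, was at 9.13 to 10 at day 16 (median 9.54) and at 10.3 to 11.5 at day 4 (median 10.6), with a difference of -1.12 ± 0.18 (adjusted p = 0.000113). MPP5, a polarity protein, differed by -0.96 ± 0.23, and by -0.63 without pools 23 and 24. Of 17 intestinal transcription factors, 1 was higher and 3 were lower. CDX4, a relative of CDX2, was at 6.51 to 7.18 at day 16 (median 6.77) and at 7.88 to 8.55 at day 4 (median 8.24), and NR5A2, a nuclear receptor of crypt and liver, fell by 0.52. CDX4 passed the limit at day 4 only, the age at which it was brighter. PROX1, a homeobox factor also found in lymphatic vessels, fell by 0.39.

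Genes of the cell cycle were lower for 14 of 69 members and higher for 2, with a median of -0.19. RFC2, a subunit of the clamp loader of replication, was at 10 to 10.3 at day 16 (median 10.1) and at 10.9 to 11.3 at day 4 (median 11), and differed by -0.86 ± 0.066 (adjusted p = 5.19e-08). The centromere protein gene CENPP fell by 0.60, while the cyclin gene CCND3 and the transcription factor gene E2F1 rose by 0.43 ± 0.072 and 0.39 ± 0.085.

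The stem cell and growth factor list had 10 of 33 members lower and 1 higher, with a median of -0.28. HMGA2, a chromatin protein of embryonic tissue, was at 8.55 to 9.51 at day 16 (median 9.17) and at 9.93 to 10.7 at day 4 (median 10.3), a difference of -1.17 ± 0.15 (adjusted p = 1.85e-05). IGF2BP3, an RNA-binding protein of embryonic tissue, differed by -1.47 ± 0.42, and by -0.84 without pools 23 and 24. PDGFRA, a growth factor receptor of mesenchymal cells, was at 7.86 to 9.01 at day 16 (median 8.28) and at 9.24 to 9.73 at day 4 (median 9.43). The ages did not overlap for these 3 genes. SFRP2, an inhibitor of Wnt signalling, rose by 0.46 ± 0.088. Of the 28 members that passed the limit at both ages, 0 were higher and 9 were lower. SFRP2 passed at day 16 only, the age at which it was brighter.

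Genes of the gut wall outside the epithelium were lower in many members. Of 24 contractile genes of smooth muscle, 11 were lower and 0 were higher, with a median of -0.43. ACTA2, the smooth muscle actin, was at 12.1 to 12.7 at day 16 (median 12.5) and at 13.1 to 13.7 at day 4 (median 13.5), a difference of -0.97 ± 0.096 (adjusted p = 1.19e-06). MYH11, the smooth muscle myosin, fell by 0.67. PPP1R12A, a regulator of myosin phosphatase, and the small heat shock protein HSPB1 fell by 0.82 and 0.70. ACTG2, the other smooth muscle actin, differed by -0.47 ± 0.23 and was not called.

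Collagens and connective tissue matrix were lower for 17 of 34 members and higher for 3, with a median of -0.38. Of the 31 that passed the limit at both ages, 15 were lower and 2 were higher, with a median of -0.35. DCN, the proteoglycan decorin, was at 10.7 to 12.1 at day 16 (median 11.4) and at 12.5 to 13.3 at day 4 (median 12.8). COL14A1, a collagen that binds fibrils, was at 6.78 to 7.55 at day 16 (median 7.38) and at 8.17 to 8.92 at day 4 (median 8.69). COL1A2, a chain of the main fibrillar collagen, fell by 0.99, and all of its 5 kept probes were called lower. The members that rose were MMP7, P4HA2 and LAMB2. MMP7, a matrix protease, was at 9.54 to 12.2 at day 16 (median 11.1) and at 5.49 to 11.2 at day 4 (median 6), and the difference of 3.74 ± 0.74 was larger in its error than that of any other gene named here. Day 4 pool 9, at 11.2, overlapped with day 16 for MMP7. MMP7 passed the limit at day 16 only and COL14A1 at day 4 only, in each case the age at which the gene was brighter. P4HA2, a collagen hydroxylase, and LAMB2, a laminin chain, rose by 0.66 ± 0.078 and 0.57 ± 0.11.

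Of 19 genes of enteric neurons and glia, 10 were lower and 2 were higher, with a median of -0.48. Of the 14 that passed the limit at both ages, 8 were lower and 1 was higher, with a median of -0.53. HAND2, a transcription factor of enteric neurons, was at 7.21 to 8.04 at day 16 (median 7.61) and at 8.31 to 9.16 at day 4 (median 8.73), a difference of -1.05 ± 0.14 (adjusted p = 2.29e-05). VIP, which also marks inhibitory motor neurons, was at 10.6 to 11.3 at day 16 (median 10.8) and at 11.6 to 12.1 at day 4 (median 11.7). STMN2, a neuronal stathmin, fell by 0.75. Of 9 endothelial and lymphatic markers, 1 was higher and 2 were lower. CDH5, the cadherin of vessels, fell by 0.69, FLI1, a factor of endothelial and blood cells, rose by 0.45 ± 0.067, and KDR, a receptor of vessels, differed by -0.14 ± 0.20 and was not called.

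Few genes of protein turnover and folding were called. Of 24 proteasome genes, 0 were called, with differences of -0.31 to 0.23. Of 38 chaperones and folding genes of the endoplasmic reticulum, 2 were higher and 2 were lower, HSPA5 being higher by 0.44 ± 0.11 and P4HB lower by -0.40 ± 0.093.

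Markers of blood and of other tissues moved in both directions, and their part in the results above was not tested. Of 8 tested erythrocyte markers, 5 were lower and 0 were higher, with a median of -0.71, and HBA1, saturated in 2 of 8 pools at day 16 and in all 7 at day 4, was not called. Of 5 tested liver markers, 1 was higher (FGG) and 3 were lower. TTR, transthyretin, was at 5.89 to 8.99 at day 16 (median 6.41) and at 8.42 to 9.28 at day 4 (median 9.16), and F2, prothrombin, and PCK1, an enzyme of glucose synthesis, fell by 0.92 and 0.52. FGG passed the limit at day 16 only and TTR at day 4 only. The albumin gene ALB and the fibrinogen chain gene FGB did not pass the limit. Of 2 tested pancreas markers, the elastase gene CELA1 rose by 0.52 ± 0.18 and the protease inhibitor gene SPINK5 fell by 1.22, while CPA1, CEL and AMY2A did not pass the limit. CELA1 passed the limit at day 16 only. Of 3 skeletal muscle markers, TNNC2 fell by 1.24 and ACTC1 by 1.31. The adipose marker ADIPOQ differed by -1.04 ± 0.37, and by -0.52 without pools 23 and 24, and PLIN1 was not called. Neither of the 2 goblet cell markers on the array was kept.

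Pools 23 and 24 had the dimmest day 16 arrays, and they were the 2 lowest day 16 pools for IGF2BP3, ACAD9, MPP5, ADIPOQ and GJB1. Over all genes, these pools were the 2 lowest for 358 genes (10.8 %), and pools 21 and 22 were the 2 lowest for 360 genes (10.9 %). Without pools 23 and 24, 402 genes were higher and 435 were lower.

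Line X, with 8 pools at day 16 and 8 at day 4, was fitted on its own arrays with the same probes. These probes were kept on line Y arrays alone, so that a gene passing the limit only in line X was not counted. In line X, 386 genes were higher (11.7 %) and 580 were lower (17.5 %) at day 16. Each of these groups had its own slide, so that line, age and slide cannot be told apart. Of the genes higher in line Y, 161 were also higher in line X, which was 39.6 % of those of line Y and 41.7 % of those of line X, and 21 were lower. Of the genes lower in line Y, 201 were also lower in line X (49.4 % of line Y and 34.7 % of line X), and 27 were higher. The difference of the changes, line Y minus line X, passed the test for 946 of 3311 genes (28.6 %), 583 of them higher and 363 lower in line Y, and for 6412 of the 19475 probes (32.9 %). It exceeded 1 on the log2 scale for 113 genes.

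T cell genes rose in both lines. In line X, 12 of 13 members were higher with a median of 1.55, against 13 of 13 and a median of 1.46 in line Y. The change of 2 of the 13 members differed between the lines, against 28.6 % of all genes. CD79B rose by 3.52 in line Y and 3.58 in line X, and the difference did not pass the test (adjusted p = 0.903). Smooth muscle genes were lower for 11 of 24 members in line Y and for 18 in line X, with medians of -0.43 and -0.72. Of the 24 changes, 5 differed between the lines, against 28.6 % of all genes. For ACTA2, the change was -0.97 in line Y and -1.14 in line X, and the difference of 0.17 did not pass the test (adjusted p = 0.326). Cell cycle genes were lower for 14 of 69 members in line Y and for 34 in line X, with medians of -0.19 and -0.38, and 20 of the changes (against 28.6 % of all genes) differed.

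Cholesterol genes were called in more members in line Y. There, 5 of 13 members were higher, against 1 in line X. The change of 5 of the 13 members differed between the lines, against 28.6 % of all genes. LSS had medians of 14.9 at day 16 and 14.1 at day 4 in line Y, against 14.4 at both ages in line X, and the difference of the changes was 0.82 (adjusted p = 2.43e-06). FDFT1 had medians of 15 and 14.3 in line Y at day 16 and day 4, and of 14.9 at both ages in line X, a difference of 0.67 (adjusted p = 6.91e-06). FASN, NR1H4 and PLTP rose in line Y and were not called in line X, with differences of 0.59, 0.70 and 1.12 (adjusted p = 0.000829, 8.71e-05 and 6.57e-06). PLTP was kept only through the line Y day 16 arrays, on which it was brighter than at day 4.

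Of the 18 interferon response genes, 5 were higher and 1 was lower in line Y, while 3 were higher and 8 were lower in line X. The change of 8 of the 18 differed between the lines, against 28.6 % of all genes. IRF7 had values of 12 to 12.9 at day 16 (median 12.6) and of 11.4 to 12.5 at day 4 (median 11.8) in line Y, against 11.4 to 12.2 (median 11.6) and 12 to 13 (median 12.2) in line X at these ages. The changes were 0.67 in line Y and -0.59 in line X, and both were called (difference 1.26, adjusted p = 4.48e-05). TAP1 rose by 2.08 in line Y and by 0.55 in line X (difference 1.53, adjusted p = 0.000478), and BLB1 by 1.34 in line Y and 2.72 in line X (difference -1.38, adjusted p = 8.12e-05).

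Among genes that fell in line Y, CYP4V2 fell by 1.46 there and differed by 0.07 in line X (difference -1.53, adjusted p = 4.81e-06). F2 had a change of -0.92 in line Y and of 0.68 in line X, where it was called higher (difference -1.61, adjusted p = 2.01e-09). SLC34A2 fell in both lines, with changes of -3.87 in line Y and -2.68 in line X (adjusted p of the difference = 0.0454). AvBD10 also fell in both, with -3.47 in line Y and -5.09 in line X (adjusted p of the difference = 0.00138). The pools of line X spread widely for SLC34A2, with 8.75 to 11.8 at day 16 and 11.5 to 13.9 at day 4. The gene with the most opposed changes noticed was MT4, a metallothionein, which was chosen after its values were seen: it differed by -1.95 ± 0.56 in line Y and by 1.78 in line X (difference -3.73, adjusted p = 0.000188). In line Y, its values were 6.66 to 9.72 at day 16 (median 9.10) and 8.70 to 12.4 at day 4 (median 10.6), so that the ages overlapped. MT4 passed the limit for dim spots at day 4 only, the age at which it was brighter in line Y.

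**Figure D3:**
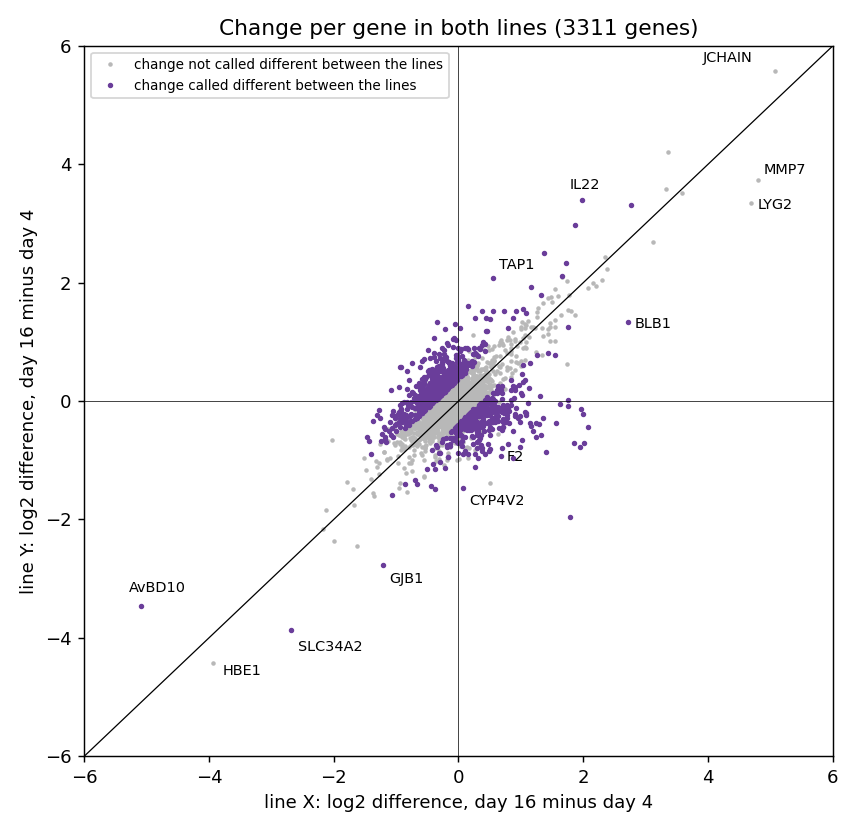
Log2 difference of day 16 minus day 4 in line Y (vertical axis) against the same difference in line X (horizontal axis), each point 1 of 3311 genes, with purple points for genes whose change differed between the lines. The 946 purple genes lie on both sides of the line of equal change, and TAP1 is at 2.08 in line Y and 0.55 in line X. The position of JCHAIN rests on line Y day 4 spots that were not well above background.

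**Figure D4:**
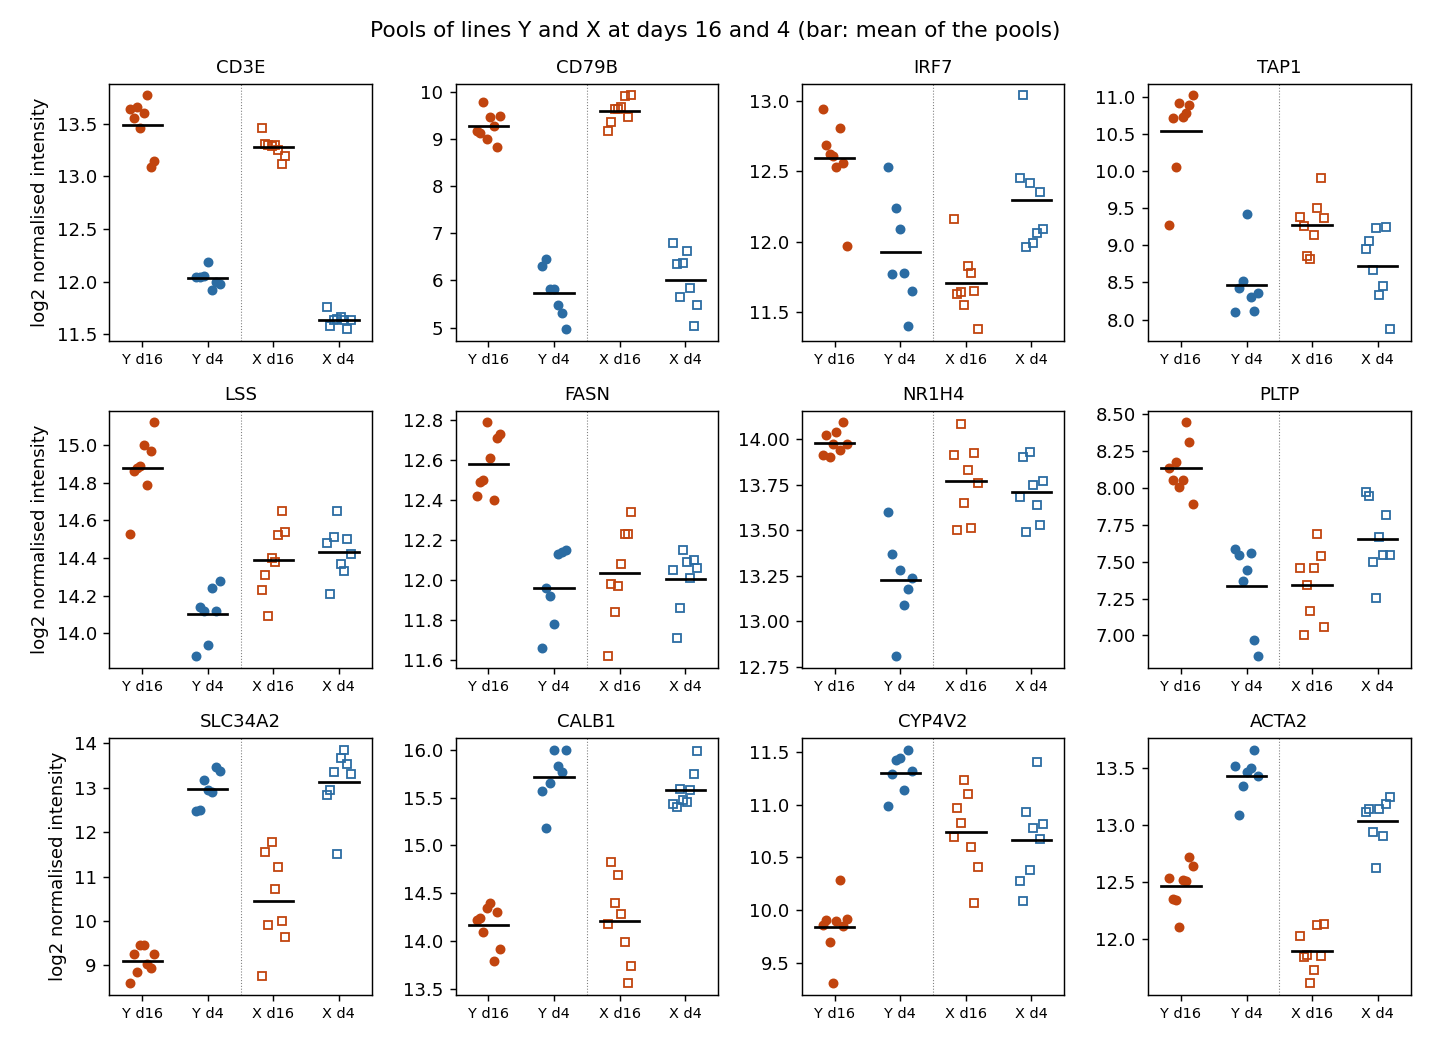
Normalised log2 intensity (vertical axis) of 12 genes in each pool, in the order line Y day 16, line Y day 4, line X day 16 and line X day 4, with a bar at the mean of each group. CD3E is higher at day 16 in both lines, whereas LSS and FASN are higher at day 16 in line Y, with medians of 14.9 and 12.6 against 14.1 and 12 at day 4.

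Of the 19475 kept probes, 12963 had no symbol. Of these, 2052 were higher and 1426 were lower at day 16, 112 and 24 of them by over 4-fold. The largest increases among all probes were in this group: the probe A_87_P131563 averaged 14.4 at day 16 and 5.76 at day 4, a difference of 8.68, and the probe A_87_P133053 averaged 13.5 at day 16 and 5.26 at day 4, a difference of 8.22. These probes were well above background in 8 of 8 day 16 pools and in 5 of 7 day 4 pools, and were chosen after their values were seen.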

How the data were processed

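Whole jejunum of line Y was measured on one-colour arrays, 1 array per pool of 10 birds. The authors deposited scanner intensities and 1 table of log2 values. Per the labels and the methods, these deposited log2 values were made by the authors with limma in R version 3.0.2, who subtracted background by normexp (offset 1), then applied quantile normalization and averaged duplicate spots. Recomputed from the deposited intensity columns, the log2 values differed by at most 5e-09. These transformations fix the distribution of every array, so that a shift of all genes cannot be seen.

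For each array a limit was set at 1.1 times the log2 value of its brightest dark corner spot, and probes over the limit in all arrays of either age were kept. Probes were named through RefSeq accessions and a gene table of assembly GRCg7b, used for names only. A gene was represented by its brightest kept probe. The 15 arrays were fitted with lmFit and eBayes of limma 3.58.1 (R 4.3.3, files read with the data.table package, version 1.17.8), and p-values were adjusted over all kept probes by the Benjamini-Hochberg method. The difference between lines was fitted on the arrays of both lines at both ages. Plots came from matplotlib 3.10.9 (Python 3.11.15). The number of arrays limits the precision.

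The fold of JCHAIN used, for the dim group, the higher of each array's lowest signal well above background and the probe's own signal. It is not a strict lower bound. The members and the gene lists were chosen with earlier results of these data known. Genes named in the text were the 12 largest of each direction whose pools did not overlap, up to 3 called members of each list in each direction, and defining markers, and 3 genes of this rule are not reported here. The fit was tested on simulated data. Alternatives were the filter, the scaling, the normexp offset, the choice of probe, the threshold, the array position and each pool left out. The filter and the threshold were not varied for single named genes.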

Additional observations from a re-analysis of the deposited data

Results flagged for a closer look

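Among 127 named genes, 23 of 254 groups of pools held a pool far from the others of its age. About 1 in 20 groups would do so for independent, normally distributed values. The groups share the same 15 arrays and some hold saturated values, so that the count cannot show an excess over chance. At day 16, these pools were pool 17 for TTR (8.99, nearest pool 6.62), SLC7A5 (9.17, nearest 8.77) and SPINK5 (9.51, nearest 8.79), pool 19 for GSTA4 (12.7, nearest 13.1) and TNNC2 (7.75, nearest 8.24), and pool 20 for KDR (7.74, nearest 8.91). They were also pool 21 for FABP1 (12.6, nearest 15.1), pool 23 for VIP (11.3, nearest 10.9), and pool 24 for IRF7 (12, nearest 12.5) and CD3D (15.8, nearest 15.9). At day 4, they were pool 9 for HBA1 (15.8, nearest 15.9), pool 10 for IL1RL1 (10.5, nearest 8.81), ACTG2 (14.8, nearest 15.5) and VIP (12.1, nearest 11.8), pool 11 for CENPP (10.2, nearest 10.5), and pool 12 for TAP1 (9.42, nearest 8.52) and ANPEP (15.8, nearest 16.0). Pool 13 stood apart for PCK1 (12.8, nearest 13.3), pool 15 for FGF19 (10.5, nearest 9.70) and pool 16 for AvBD10 (7.14, nearest 8.66). VIL1 at both ages (pools 20 and 12) and PIGR at day 16 (pool 24) had such a pool within values of 16.0, at the top of the scale. ANPEP and HBA1 at day 4 and CD3D at day 16 also had saturated pools.

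The change of 14 named genes differed between the lines by over 1 on the log2 scale, as line Y minus line X. It was larger or more positive in line Y for AvBD10 (1.61), TAP1 (1.53), IL22 (1.41), IRF7 (1.26), PCASP2 (1.14), PLTP (1.12) and LOC422926 (1.1). It was smaller or more negative in line Y for F2 (-1.61), GJB1 (-1.56), CYP4V2 (-1.53), BLB1 (-1.38), MPP5 (-1.27), SLC34A2 (-1.20) and DCN (-1). Of these, IL22, GJB1 and SLC34A2 had adjusted p-values of 0.0408, 0.0282 and 0.0454 in limma's test of the difference.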

How the results depend on the processing

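Counts of calls depended most on the filter and the threshold. With no filter on dim probes, 5014 probes were higher and 4914 lower, and 542 genes were higher and 617 lower. With probes well above background in every array of at least 1 age, 4184 were higher and 4116 lower. With the limit passed at both ages, 1736 probes were higher and 2046 lower. With the median limit in every array, chosen after seeing the data, 3792 probes were higher and 3784 lower, and 484 genes were higher and 548 lower. Above a fold change of 2, 624 probes and 94 genes were higher and 237 probes and 45 genes were lower. With no threshold on size, 4078 probes were higher and 3817 lower, and 667 genes were higher and 721 lower. With limma's treat against a fold change of 1.3, 1056 probes and 162 genes were higher and 449 probes and 85 genes lower. The difference between lines passed for 11142 probes with no filter and for 1254 above 1 on the log2 scale. The causes were not tested, beyond the number of probes and the size that each setting admits. Leaving out 1 pool gave 2619 to 2762 higher and 2148 to 2489 lower probes, and 388 to 418 higher and 380 to 431 lower genes.

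No paired analysis was possible for the ages, because their pools share no numbers. Across the lines, with the pool number as a replicate block, 6644 probes differed, and pools of the same number did not all deviate together: the correlation was -0.222 to 0.35 over 8 pairs at day 16 (3 over 0.1) and 0.111 to 0.262 over 7 pairs at day 4.

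The calls of single named genes were followed under 21 settings, 15 of which left out 1 pool. The alternatives of the filter and the threshold were not among these 21. Of 116 named genes called, 101 kept the call under all 21 settings, 15 lost it under 1 or more, and 0 reversed. Leaving out a single pool ended the call of 8 genes: ACLY for 11 of 15 pools, EZR for 7, ADIPOQ, CELA1, E2F1 and FGF19 for 5 each, and P4HB and PROX1 for 4 each. The scaling to the 75th percentile cost 9 calls (ACLY, ALAS1, CALM2, CELA1, DPP4, E2F1, EZR, P4HB and PCK1), and the mean of all kept probes cost those of ACAD9, E2F1, HSPA5 and XDH. Without pools 23 and 24 of day 16, which was chosen after seeing the data, ACLY (0.39), CELA1 (0.54), EZR (-0.27), FGF19 (-0.52), P4HB (-0.33) and XDH (0.37) were not called. With an offset of 50, JCHAIN differed by 3.42. The median over all genes was between -0.07 and -0.01 under these settings. Of 651 list medians tried, 29 moved by over 1 SD of their spread between pools. Among lists with an absolute median over 0.1, 0 changed sign. With the mean of all kept probes, the median was 0.60 for antigen presentation, 0.29 for chemokines, interleukins and their receptors, and -1.18 for erythrocyte markers.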
